A study of Oryctolagus cuniculus with 12 samples.

Results

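A group of 10 genes of TGF-beta and activin signalling were followed in rabbit ear skin and hypertrophic scar (HS). They were the ligands TGFB2, TGFB3 and INHBA, the latent TGF-beta binding protein family member LTBP2, the secreted follistatin-like protein FSTL1, the receptors TGFBR1, TGFBR2 and TGFBR3, and the intracellular mediators SMAD3 and SMAD7. The list was a choice of names made with earlier results of these data known, and it took 10 of the 29587 genes of the table. Counts of members set beside those of all tested genes are therefore descriptions and no independent support. TGFB1 was left out because its row could not be assigned without ambiguity. All 10 averaged 1 FPKM or more, the filter for testing, as did 13287 genes in all. FPKM counts fragments in proportion to gene length and library size, so levels of different genes can be compared within a sample if the deposited gene lengths are right. For SMAD3 that length was short, at 1183 bases, and whether the gene models are complete was not checked.

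RNA-seq of full thickness ear was available for 12 samples in 4 groups of 3, from WT female rabbits, 10 to 12 weeks old when the study began. The study had 3 rabbits per group and calls the samples biologically independent. Each was therefore taken as a different rabbit, although the sample labels name no animal. NS was unwounded normal skin, and HS was scar left without treatment after wounds on the ventral ear that had removed epidermis, dermis and perichondrium. The 2 treated groups carried such scars too. Treatment was given on days 22, 29 and 36 after wounding. Each lesion received 1 patch of drug-loaded MNs or an injection of 120 μg of 5-fluorouracil (5-Fu, a cytostatic pyrimidine analogue) in a volume of 0.1 mL. The drug-loaded MNs were microneedles of crosslinked gelatin. They held a prodrug of 5-fluorouracil acetic acid, a derivative of 5-Fu, and not 5-Fu itself. All tissue was taken on day 43. Drug-free MNs were not analysed here, so the patch and its drug cannot be told apart. The tissue held both faces of the ear and the cartilage between them, and bulk RNA cannot tell fewer cells of a type from less RNA per cell.

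TGF-beta ligands leave the cell bound to a latency peptide, and latent TGF-beta binding proteins and fibrillins tether many of these complexes to the matrix, from which integrins can release the ligand. Free TGF-beta binds TGFBR2, with TGFBR3 (betaglycan) as a co-receptor that TGFB2 in particular depends on. TGFBR2 then recruits the kinase TGFBR1, which phosphorylates SMAD2 and SMAD3, while SMAD7 is induced by the pathway and blocks it. INHBA encodes the subunit of activin A, which signals through its own receptors to the same SMADs and is bound by follistatin (FST). In skin the pathway drives fibroblasts to lay down collagen, and it is among the best known drivers of scarring.

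The libraries held 10521472 to 14043667 reads on genes, and a 1 kb gene listed at 1 FPKM had 10.3 to 13.0 reads, so that the members, with group means of 2.61 to 483 FPKM, were not near the limit of detection. The FPKM had been scaled with a library size that exceeded the reads of NS samples (ratio 1.12 to 1.20) and was below those of HS samples (0.873 to 0.932). Rescaled to total reads, the median log2 fold change of all tested genes between HS and NS moved from -0.01 to -0.33, and the genes with an adjusted p under 0.05 moved from 696 higher of 990 to 446 higher of 2637. For 5-Fu injection against HS the same rescaling changed the split from 164 higher of 585 to 300 higher of 542. Directions of the members were therefore also computed on that scale, and the changes are given beside the results. The share of mitochondrial reads was 4.73% to 6.66% in NS, 3.20% to 3.83% in HS, 4.34% to 5.41% with drug-loaded MNs and 5.50% to 10.7% after 5-Fu injection. The 10 most abundant genes took 8.64% to 10.0%, 19.8% to 24.3%, 16.5% to 17.3% and 12.0% to 18.4% of the reads in the same order.

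The first question was which members differed between scar and normal skin. All 4 members that were differentially expressed genes (DEGs, limma adjusted p under 0.05 and absolute log2 fold change above 1) encode secreted proteins: TGFB3, INHBA, LTBP2 and FSTL1. They were 3.56 to 6.36 times as high in HS as in NS by group means, and all 4 were called on the total-read scale too. Over all tested genes, 3.53% were DEGs higher in HS. None of the 3 receptors and 2 SMADs was called, and their fold changes of the means were 0.891 to 1.51.

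TGFB3 (ENSOCUG00000011415, plus strand of chromosome 20, 29184036 to 29208373) is the isoform best known from palate closure and from work on scar-poor healing. It stood at 22.6, 16.4 and 34.7 FPKM in NS and at 255, 113 and 101 FPKM in HS, the samples being given in replicate order here and below. The lowest HS sample lay well above the highest NS sample, although HS replicate 1 was far above the other HS samples in level. The log2 fold change was 2.55 ± 0.38 (SE, n = 3 per group) with a limma adjusted p of 0.0034. No member had a larger one in this comparison.

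TGFB2 (ENSOCUG00000005279, minus strand of chromosome 16, 54746710 to 54835476), the other TGF-beta isoform measured, had 10.0, 5.31 and 7.52 FPKM in NS and 29.0, 16.0 and 11.4 FPKM in HS. The groups did not overlap, but HS replicate 3 was close to NS replicate 1 and below it on the total-read scale. Its log2 fold change of 1.14 ± 0.37 (SE) did not pass (limma adjusted p = 0.0892).

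The balance of both isoforms was then compared within each sample, where scaling between libraries has no part. The ratio of TGFB3 to TGFB2 was 2.25, 3.09 and 4.61 in NS and 8.79, 7.06 and 8.80 in HS. In the treated scars it was 12.1, 7.41 and 6.57 with drug-loaded MNs and 9.19, 7.64 and 12.2 with 5-Fu injection. All 9 scar samples thus lay above all 3 normal samples, and the treated scars overlapped with HS. This ratio was chosen after the values were seen and was not tested.

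INHBA (ENSOCUG00000000621, minus strand of chromosome 10, 24692312 to 24708914) was the lowest of the 10 in NS, at 2.37, 2.23 and 3.22 FPKM. In HS it had 12.3, 8.13 and 7.40 FPKM, again with replicate 1 on top and no overlap with NS. The log2 fold change was 1.49 ± 0.32 (SE, limma adjusted p = 0.0177). FST, its secreted antagonist, had 16.9 ± 3.15 FPKM in NS and 16.5 ± 12.2 FPKM in HS (SD, n = 3), a log2 fold change of -0.23 (limma adjusted p = 0.763). Taken per sample, the ratio of INHBA to FST was 0.116, 0.143 and 0.222 in NS and 0.404, 1.01 and 0.671 in HS, without overlap. In the treated scars it was 0.511, 0.720 and 0.460 with drug-loaded MNs and 0.854, 0.375 and 0.217 with 5-Fu injection. After 5-Fu injection, replicate 3 thus lay within the NS range and replicate 1 within the HS range. This ratio, too, was chosen after the values were seen and carries no test.

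LTBP2 (ENSOCUG00000014077, plus strand of chromosome 20, 30504806 to 30590509) encodes a matrix protein of the microfibrils that, unlike other LTBPs, is not known to bind latent TGF-beta. NS samples were nearly equal at 12.4, 11.6 and 11.9 FPKM, and HS samples were spread out at 96.7, 44.7 and 26.6 FPKM. The lowest HS sample was still above every NS sample. LTBP2 rose by a log2 fold change of 1.94 ± 0.41 (SE, limma adjusted p = 0.0187). TGFB3 and LTBP2 lie 1296432 bases apart on chromosome 20. Of the 18 tested genes between them, 0 were DEGs in this comparison, and their median log2 fold change was -0.07.

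FSTL1 (ENSOCUG00000005247, plus strand of chromosome 14, 98381788 to 98443637) encodes a secreted glycoprotein of mesenchymal cells that shares a follistatin domain with FST. It was the most abundant member in HS and had the least spread there, at 484, 473 and 492 FPKM against 114, 88.1 and 107 FPKM in NS. The gap between the groups was many times the spread within either. Its log2 fold change was 2.23 ± 0.33 (SE, limma adjusted p = 0.0033).

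**Figure D1:**
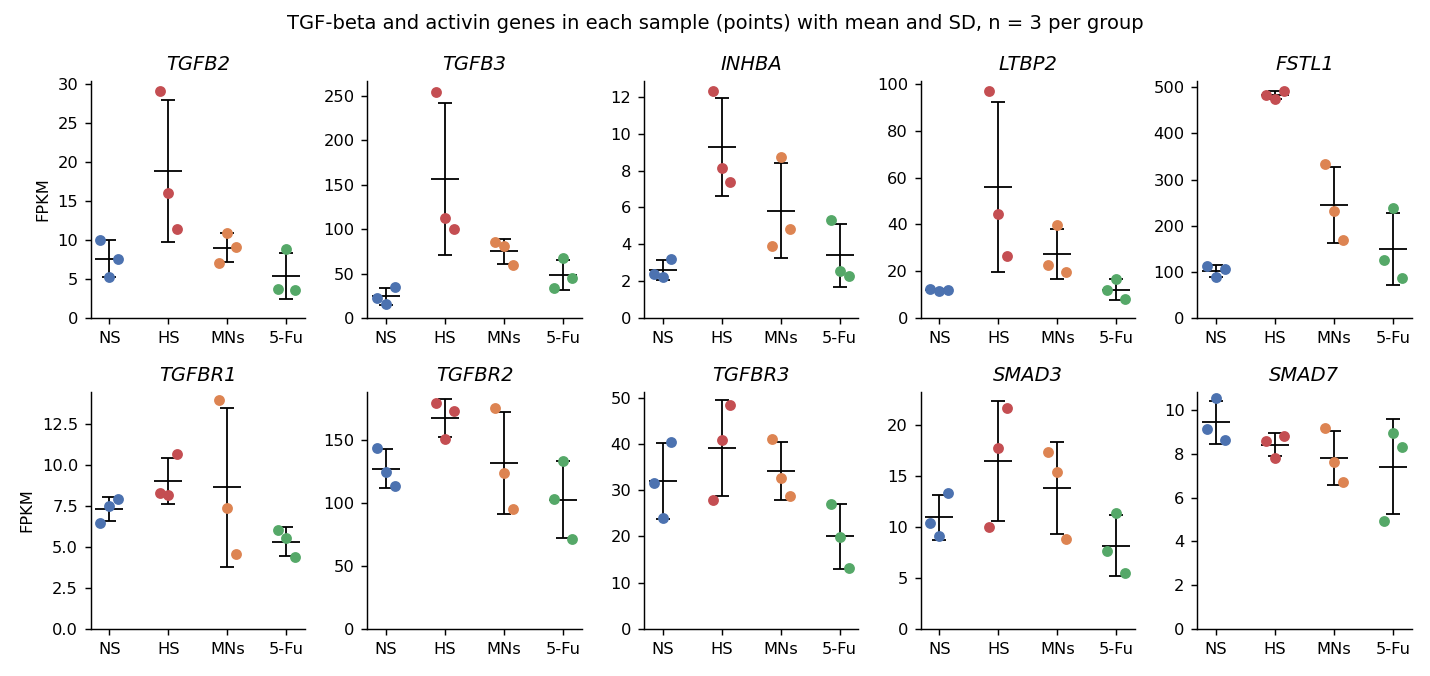
FPKM of the 10 genes on linear axes that start at 0, 1 panel per gene, for NS, HS, drug-loaded MNs (MNs) and 5-Fu injection (5-Fu). Points are samples in replicate order and black marks are the mean with SD (n = 3). The 5 secreted genes of the upper row have every HS sample above every NS sample, with HS replicate 1 highest in all but FSTL1, whereas SMAD7 stays between 4.92 and 10.6 FPKM in all samples.

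The receptors were present in all samples at widely different levels. TGFBR2 (ENSOCUG00000015963, plus strand of chromosome 14, 17663078 to 17748720), the receptor that binds ligand, was the most abundant of the 10 in NS at 143, 124 and 113 FPKM, and had 179, 150 and 173 FPKM in HS. TGFBR1 (ENSOCUG00000016292, minus strand of chromosome 1, 14067402 to 14138593), its partner kinase, had 6.49, 7.50 and 7.95 FPKM in NS and 8.28, 8.18 and 10.7 FPKM in HS. For both, HS samples were above NS samples by a small margin, and on the total-read scale the groups overlapped. The log2 fold changes were 0.40 for TGFBR2 (95% confidence interval -0.15 to 0.95, limma adjusted p = 0.373) and 0.27 for TGFBR1 (-0.38 to 0.91, limma adjusted p = 0.627), and on the total-read scale they were 0.04 and -0.06.

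TGFBR3 (ENSOCUG00000016083, plus strand of chromosome 13, 72582178 to 72765425) had 31.5, 24.0 and 40.5 FPKM in NS and 28.0, 40.8 and 48.5 FPKM in HS. The groups overlapped, since HS replicate 1 was below 2 of the NS samples. The log2 fold change of 0.28 (95% confidence interval -0.35 to 0.91, limma adjusted p = 0.600) became -0.07 on the total-read scale.

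SMAD3 (ENSOCUG00000029601, minus strand of chromosome 17, 5347746 to 5366384), which carries the signal to the nucleus, had 10.3, 9.09 and 13.3 FPKM in NS and 10.0, 17.7 and 21.7 FPKM in HS. HS replicate 1, the sample with the most TGFB3, TGFB2, INHBA and LTBP2, had the least SMAD3 and TGFBR3 of its group. The log2 fold change of SMAD3 was 0.50 (95% confidence interval -0.22 to 1.23, limma adjusted p = 0.397). SMAD7 (ENSOCUG00000024309, minus strand of chromosome 9, 89926263 to 89989670), the inhibitory SMAD, had 9.12, 10.6 and 8.64 FPKM in NS and 8.60, 7.81 and 8.81 FPKM in HS. It was the single member with a negative value, a log2 fold change of -0.15 (95% confidence interval -0.59 to 0.29, limma adjusted p = 0.702).

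Counted over the list, 4 of 10 members were DEGs and 7 had every HS sample above every NS sample, which 18% of all tested genes did. On the total-read scale 4 members did so, TGFB3, INHBA, LTBP2 and FSTL1, as did 7.01% of all tested genes. The median log2 fold change of the 10 was 0.82, against -0.01 for all tested genes. In NS the order of levels began with TGFBR2 and FSTL1, whose samples overlapped, and ended with INHBA, which was below TGFBR1 without overlap. In HS the order was FSTL1, then TGFBR2 and TGFB3, which overlapped with each other, then LTBP2, and from LTBP2 downwards each neighbour overlapped with the next.

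INHBA and LTBP2 each missed the threshold without NS replicate 1 and without NS replicate 2, INHBA also without HS replicate 1 (limma adjusted p up to 0.0725) and LTBP2 also without HS replicate 2 (up to 0.0620). TGFB3 and FSTL1 were called under all 21 alternatives.

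Cell type markers moved with these genes. The fibroblast markers LUM, DCN and PDGFRB (3 of 4 listed were found, and PDGFRA was not) summed to 658 to 890 FPKM in NS and 4529 to 5765 FPKM in HS, 6.65 times as much by the means. All 3 passed the test, but they rose unequally: LUM went from 118 to 192 FPKM to 2775 to 3961 FPKM, DCN from 463 to 618 to 1578 to 1746, and PDGFRB from 78.1 to 104 to 161 to 184. Keratinocyte markers (4 of 6 found) summed to 2107 to 3662 FPKM in NS and 1279 to 1870 FPKM in HS. Cartilage markers (7 of 8 found) varied within HS, at 453, 916 and 4673 FPKM, and were lowest in HS replicate 1. The part of tissue makeup in the differences of the members was not tested.

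Each member was then set against the fibroblast markers. Per 1000 FPKM of those markers, TGFB3 stood at 24.9 to 44.7 in NS and 21.9 to 44.2 in HS, ranges that overlapped almost fully. FSTL1 stood at 128 to 138 in NS and 83.9 to 109 in HS. TGFBR2 was at 146 to 189 in NS and 29.1 to 38.2 in HS, and SMAD7 at 10.2 to 16.0 and 1.49 to 1.94. In all, 8 of the 10 members were lower against the markers in every HS sample than in any NS sample, secreted genes such as TGFB2 (8.07 to 11.3 in NS, 2.53 to 5.03 in HS) and INHBA (2.66 to 4.15 and 1.57 to 2.14) among them, and TGFB3 and LTBP2 overlapped. Because the marker sum was 6.65 times as high in HS, any gene that rose clearly less falls in this ratio. The share of all tested genes that fell without overlap was not counted. The sum is carried by LUM in HS, and the log2 fold change of TGFB3 was above the median of the 3 markers (1.62). These ratios were chosen after the values were seen and are descriptions only, since LUM and DCN are themselves matrix genes that scar fibroblasts express.

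**Figure D2:**
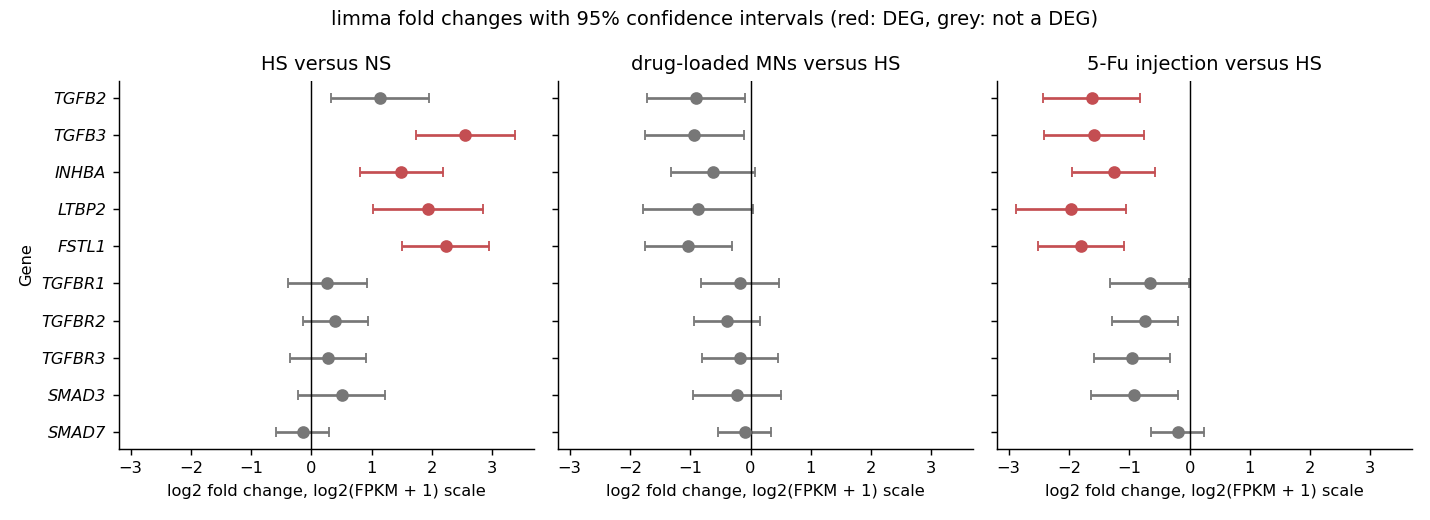
Log2 fold change of each gene (horizontal axis, log2(FPKM + 1) scale) with its 95% confidence interval from limma, for HS versus NS, drug-loaded MNs versus HS and 5-Fu injection versus HS. Red marks are DEGs: 4 in HS versus NS, 0 with drug-loaded MNs and 5 with 5-Fu injection, all 5 of them secreted, with the largest fall at -1.97 for LTBP2.

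The next comparison asked what the 5-Fu injection left of this pattern. All 5 secreted members were DEGs lower than in HS, namely FSTL1, LTBP2, TGFB2, TGFB3 and INHBA, at 21.8% to 36.6% of the HS mean. Over all tested genes, 1.78% were DEGs in this direction. No receptor or SMAD was called, although 8 of the 10 members had every treated sample below every HS sample, as did 16.4% of all tested genes. On the total-read scale 7 did, TGFBR3 no longer being among them, as did 11.5% of all tested genes. The share of mitochondrial reads was higher, and that of the 10 most abundant genes lower, in every sample after 5-Fu injection than in any HS sample, and their part was not tested.

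FSTL1 had 127, 237 and 87.1 FPKM after 5-Fu injection, all far below the HS samples, with a log2 fold change of -1.80 ± 0.33 (SE, limma adjusted p = 0.0267). LTBP2 had 12.0, 16.6 and 7.99 FPKM, with a log2 fold change of -1.97 ± 0.41 (SE, limma adjusted p = 0.0333). Replicate 1 lay within the narrow NS range of this gene, replicate 2 above it and replicate 3 below it. Among the ligands, TGFB2 fell to 3.71, 8.81 and 3.67 FPKM, a log2 fold change of -1.63 ± 0.37 (SE, limma adjusted p = 0.0387). Thus TGFB2, which did not pass between HS and NS, did pass here, and 2 of its treated samples were below every NS sample.

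TGFB3 had 34.1, 67.3 and 44.7 FPKM after 5-Fu injection, a log2 fold change of -1.59 ± 0.38 (SE, limma adjusted p = 0.0424). INHBA had 5.35, 2.54 and 2.31 FPKM, a log2 fold change of -1.26 ± 0.32 (SE, limma adjusted p = 0.0487). No treated sample of either gene overlapped with HS. Replicate 2 was the highest treated sample for FSTL1, TGFB3, LTBP2 and TGFB2, and replicate 1 for INHBA.

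Receptor values after 5-Fu injection were 6.05, 5.56 and 4.38 FPKM for TGFBR1, 103, 133 and 71.5 FPKM for TGFBR2, and 27.0, 20.0 and 13.1 FPKM for TGFBR3. All 9 values were below the lowest HS sample of the same gene. The log2 fold changes were -0.66 for TGFBR1 (limma adjusted p = 0.183), -0.75 for TGFBR2 (0.0972) and -0.95 for TGFBR3 (0.0752), so that 95% confidence intervals lay below 0 without adjustment and the adjusted values missed the threshold. SMAD3 had 7.64, 11.3 and 5.46 FPKM, which overlapped with HS replicate 1 (log2 fold change -0.92, limma adjusted p = 0.115). SMAD7 had 4.92, 8.96 and 8.31 FPKM and moved least of the 10, at -0.20 (limma adjusted p = 0.563). The median of the members was -1.11, against 0.02 for all tested genes. An unadjusted limma p under 0.05 was reached by 9 of 10 members and by 3449 of 13287 tested genes.

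These 5 calls were close to the threshold. A fit to the samples of HS and 5-Fu injection alone called 0 members and 0 genes in all, and without any 1 of the HS samples, or without 5-Fu injection replicate 1 or 3, 0 of the 10 were called. Without 5-Fu injection replicate 2 the calls were 4, and TGFBR2 passed the adjusted p (0.0384) at a log2 fold change of less than 1 in size.

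Fibroblast markers again moved alongside, summing to 1236, 3426 and 1271 FPKM after 5-Fu injection, so that replicate 2 was high in the markers as well as in 4 of the 5 secreted members. Cartilage markers had the reverse order between replicates 1 and 2, at 5394, 462 and 915 FPKM. T and NK cell markers (3 of 6 found) were at 47.1, 7.10 and 7.97 FPKM, against 1.88 to 2.66 FPKM in HS. Keratinocyte markers were at 5308, 2719 and 2998 FPKM, above every HS sample (1279 to 1870). Their part in the result was not tested. Per 1000 FPKM of fibroblast markers, TGFB3 was at 19.6 to 35.2, overlapping with every other group, and TGFBR2 at 38.7 to 83.2, above every HS sample. The marker sum was at 38.4% of its HS mean, which raises this ratio for any gene that fell less.

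Compared with NS, scars after 5-Fu injection had 0 members called by limma and 0 by limma voom. An unadjusted limma p under 0.05 was reached by 2 of 10 members and by 1981 of 13287 tested genes. Across all tested genes, 0.00753% were DEGs higher than in NS. TGFB3 kept the largest positive value, a log2 fold change of 0.97 (95% confidence interval 0.14 to 1.80, limma adjusted p = 0.278). TGFBR3 had the largest negative value, at -0.68 (-1.30 to -0.05, limma adjusted p = 0.307). LTBP2 was at -0.03, with an interval of -0.94 to 0.88 that leaves room for a change of nearly 1 in either direction.

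Drug-loaded MNs gave log2 fold changes from HS that were smaller in size than those of 5-Fu injection. The direct comparison of both treatments, given below, called 0 members. With drug-loaded MNs against HS, all 10 log2 fold changes were negative, as were those of 53.2% of all tested genes. The 5 secreted members were at 47.9% to 62.8% of their HS means, but 0 members were called by limma and 0 by limma voom. An unadjusted limma p under 0.05 was reached by 3 of 10 members and by 1183 of 13287 tested genes. The background for DEGs lower than in HS was 0%, with 1 DEG among all tested genes in either direction. SMAD7 changed sign on the total-read scale, to 0.03.

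FSTL1 had 333, 233 and 169 FPKM with drug-loaded MNs, all below HS and all above NS, and a log2 fold change from HS of -1.03 (95% confidence interval -1.75 to -0.31, limma adjusted p = 0.376). TGFB3 had 86.0, 80.7 and 59.5 FPKM, also between both untreated groups in every sample, and a log2 fold change of -0.93 (-1.76 to -0.10, limma adjusted p = 0.521). TGFB2 had 7.11, 10.9 and 9.05 FPKM, below every HS sample and overlapping with NS, at -0.91 (-1.72 to -0.09, limma adjusted p = 0.525). These were the 3 members without overlap with HS, which 10.3% of all tested genes showed. On the total-read scale TGFB3 and FSTL1 remained without overlap, and 3.68% of all tested genes showed this.

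LTBP2 had 22.8, 39.7 and 19.5 FPKM and INHBA had 3.92, 8.73 and 4.85 FPKM with drug-loaded MNs. Replicate 2 overlapped with HS for both genes, and the log2 fold changes were -0.88 (95% confidence interval -1.79 to 0.04) and -0.62 (-1.32 to 0.07). TGFBR1 was widely spread, at 14.0, 7.38 and 4.54 FPKM, from above every other sample to below all but 1 of them. TGFBR2 had 175, 123 and 95.2 FPKM, TGFBR3 had 41.1, 32.6 and 28.7 FPKM, SMAD3 had 17.3, 15.4 and 8.78 FPKM, and SMAD7 had 9.16, 7.62 and 6.71 FPKM. Replicate 1 was highest and replicate 3 lowest in all 5 of these receptor and SMAD genes. Fibroblast markers had the same order, at 3991, 2823 and 2668 FPKM, cartilage markers the opposite one, at 835, 2239 and 4747 FPKM, and keratinocyte markers were at 3605, 3864 and 8469 FPKM. Whether tissue makeup had a part was not tested.

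Against NS, drug-loaded MNs had 0 members called by limma and 0 by limma voom. An unadjusted limma p under 0.05 was reached by 4 of 10 members and by 1718 of 13287 tested genes. Of all tested genes, 0.79% were DEGs higher than in NS. The 4 were TGFB3, FSTL1, INHBA and LTBP2, the same genes that were called in untreated scar. That call used the same NS samples, so these comparisons are not independent. In each of them all treated samples were above all NS samples, and the share of all tested genes with this was not counted. TGFB3 had a log2 fold change of 1.63 (95% confidence interval 0.80 to 2.45, limma adjusted p = 0.0829) and FSTL1 one of 1.20 (0.48 to 1.92, limma adjusted p = 0.133). INHBA was at 0.87 (0.18 to 1.56) and LTBP2 at 1.06 (0.15 to 1.97). TGFB3 passed without HS replicate 1 and FSTL1 without 5-Fu injection replicate 2, samples that are in neither group and act through the shared spread alone.

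The last comparison set the treatments side by side. They differed in the form of the drug, in dose and in route, so the values describe the 2 regimens rather than the drugs. All 10 members were higher with drug-loaded MNs, by log2 fold changes of 0.10 to 1.09, while 49.7% of all tested genes were lower. Limma called 0 members (adjusted p 0.279 to 0.836 over all tested genes), and limma voom called 0. An unadjusted limma p under 0.05 was reached by 3 of 10 members and by 2009 of 13287 tested genes. Of all tested genes, 0% were DEGs in this direction. The 3 were LTBP2 at 1.09 (95% confidence interval 0.18 to 2.00), TGFBR3 at 0.78 (0.15 to 1.41) and FSTL1 at 0.77 (0.05 to 1.49). For TGFB3 the interval was -0.17 to 1.48 and for INHBA -0.06 to 1.33, so both intervals reached beyond 1. Both treated groups were compared with the same HS and NS samples, so their values against those groups are not independent.

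Other genes of the pathway were described from 5 lists. Genes of latency and activation (11 tested of 15 listed) had 6 higher and 1 lower in HS than in NS by limma adjusted p, and a median log2 fold change of 0.81 against -0.01 for all genes. Of all tested genes, 5.24% were higher and 2.21% lower by this rule. FBN1 and FBN2, the fibrillins to which LTBPs attach, rose by 1.74 (limma adjusted p = 0.0022) and 1.60 (0.0200). LTBP1, which does bind latent TGF-beta, rose from 19.3 ± 5.02 to 57.8 ± 9.12 FPKM (SD, n = 3), a log2 fold change of 1.55 (limma adjusted p = 0.0104). ITGB8, the integrin subunit that activates TGF-beta with ITGAV, went the other way, from 14.8 ± 4.80 to 4.82 ± 1.09 FPKM (-1.41, limma adjusted p = 0.0061). On the total-read scale the counts were 4 higher and 1 lower, and with 1 sample left out 3 to 7 were higher, 3 without NS replicate 2 or HS replicate 3. After 5-Fu injection 4 of the 11 were lower than in HS, namely FBN2 (-1.93), FBN1 (-1.71), LTBP1 (-1.31) and ITGAV (-1.11), as were 3.17% of all tested genes. As for the members, 0 of these calls were left with only the groups compared, without any 1 of the HS samples, or without 5-Fu injection replicate 1 or 3.

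Genes known as targets of the pathway (19 tested of 33 listed) had 9 higher and 0 lower in HS, against 5.24% and 2.21% of all tested genes. Their median log2 fold change was 1.64. With 1 sample left out 6 to 10 were higher, 6 without NS replicate 1 or HS replicate 1 or 2. The leading ones were ADAM12, a membrane protease of activated mesenchymal cells, at 5.12 (limma adjusted p = 0.0013), the proteoglycan VCAN at 4.39 (0.0167) and the collagens COL1A1 at 4.34 (0.0033) and COL1A2 at 4.18 (0.0019). ACTA2 and CCN2, which are also widely used as readouts, did not pass. CCN2 had 442 ± 39.1 FPKM in NS and 441 ± 122 FPKM in HS (SD, n = 3), and ACTA2 was spread over 387 ± 363 FPKM in NS. After 5-Fu injection 4 were lower than in HS (3.17% of all tested genes were): ADAM12 (-3.40), COL1A1 (-2.69), LRRC15 (-2.19) and COL3A1 (-1.93). The count was 0 with the replicate block, with only the groups compared, without any 1 of the HS samples and without 5-Fu injection replicate 1 or 3. It was 9 without 5-Fu injection replicate 2, and 1 without NS replicate 1 or drug-loaded MNs replicate 2. With drug-loaded MNs 0 differed from HS, and 5 were still above NS, among them COL1A2 (3.31, limma adjusted p = 0.0232) and COL3A1 (3.14, 0.0179), as were 0.866% of all tested genes. These 5 calls fell to 1 with the replicate block or without drug-loaded MNs replicate 2, and to 0 without NS replicate 1 or 2 or drug-loaded MNs replicate 1 or 3. Most of these genes are made by fibroblasts, whose markers moved as given above.

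**Figure D3:**
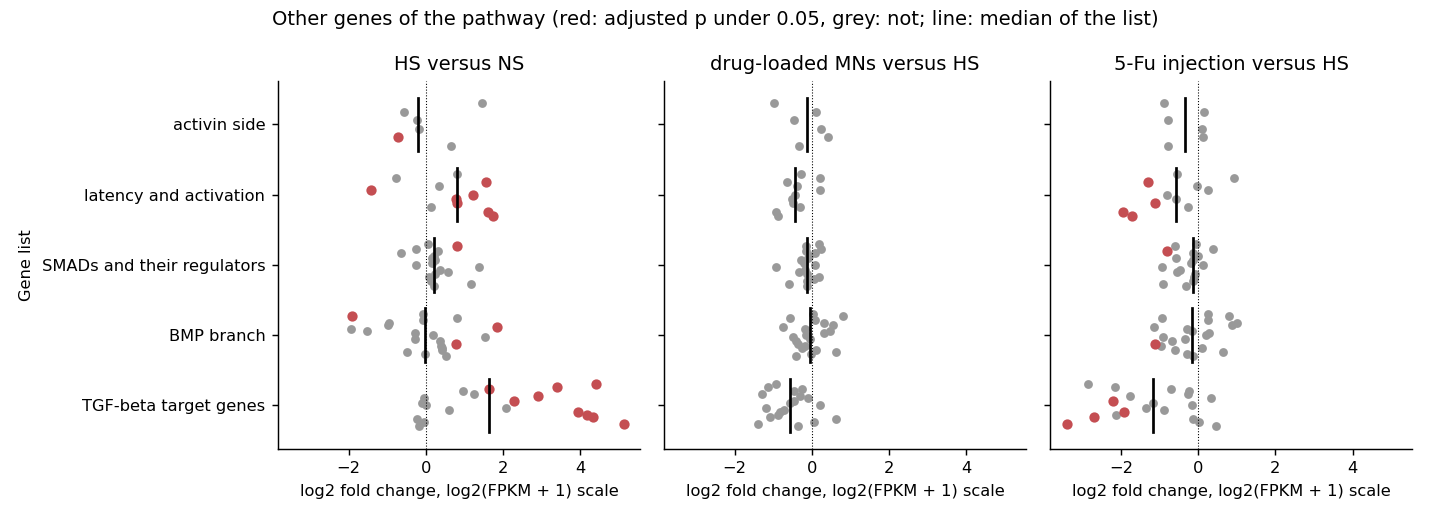
Log2 fold change (log2(FPKM + 1) scale) of every tested gene of 5 pathway lists, 1 point per gene, in 3 comparisons. Red points have a limma adjusted p under 0.05 and the black line is the median of the list. In HS versus NS the target genes (median 1.64) and the latency and activation genes (median 0.81) have medians above 0. Of the SMADs and their regulators, 16 of 19 are above 0 with a median of 0.21, while 51.4% of all tested genes are below 0. The BMP branch and the activin side have medians of -0.02 and -0.21. On the total-read scale the SMAD median is -0.12, that of the BMP branch -0.35 and that of the activin side -0.54. The median of all tested genes there is -0.33.

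The remaining lists had few calls. Of 19 SMADs and regulators tested, ZFYVE16 (endofin, which binds SMADs at endosomes) was higher in HS at 0.82 (limma adjusted p = 0.0140) and 0 were lower, whereas on the total-read scale 0 were higher and 2 lower. Without NS replicate 1, HS replicate 1 or HS replicate 3, 0 were higher. SMAD4, the shared partner of all signalling SMADs, had a log2 fold change of 0.58 that did not pass (limma adjusted p = 0.0867), and SMAD2 one of 0.24. TRIM33, which binds or ubiquitinates SMAD complexes, was lower after 5-Fu injection than in HS at -0.82 (limma adjusted p = 0.0319), a call lost, like that of BMPR2 below, without any 1 of the HS samples.

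In the BMP branch (21 tested) 2 genes were higher and 1 lower in HS, and 1 higher and 4 lower on the total-read scale. With 1 sample left out, 1 to 2 were higher, 1 without NS replicate 1 or 2 or HS replicate 1 or 3, and 1 to 2 were lower, 2 without HS replicate 3 or 5-Fu injection replicate 3. The BMP antagonist NOG went from 21.4 ± 6.50 FPKM in NS to 4.78 ± 0.331 FPKM in HS (SD, n = 3), a log2 fold change of -1.91 (limma adjusted p = 0.0073). The receptor BMPR2 rose by 0.79 (limma adjusted p = 0.0233) and was lower after 5-Fu injection than in HS at -1.13 (0.0214). On the activin side (6 tested) the type I receptor ACVR1B was lower in HS at -0.72 (limma adjusted p = 0.0487), a call that was lost with any 1 sample left out and under 6 of the other settings, among them quantile normalization and a pseudocount of 0.1. INHBB, which encodes the subunit of activin B, had 3.64 ± 1.63 FPKM in NS and 15.2 ± 15.6 FPKM in HS, without overlap and without a call (1.45, limma adjusted p = 0.141).

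**Figure D4:**
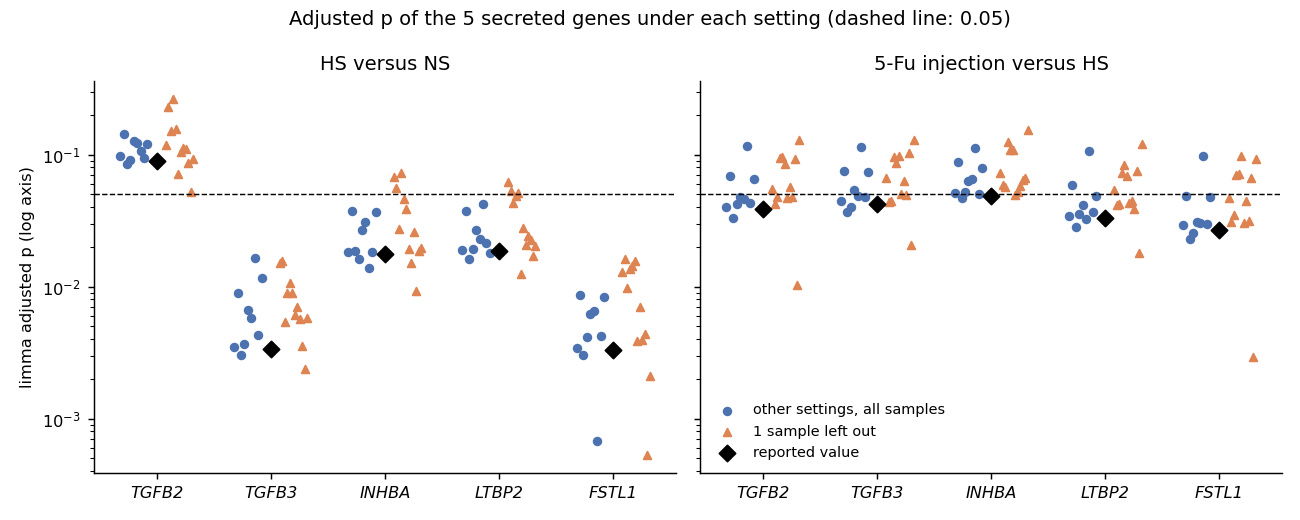
Limma adjusted p (log axis) of the 5 secreted genes in HS versus NS and in 5-Fu injection versus HS. Diamonds are the reported values, circles other settings with all samples, triangles fits with 1 sample left out, and the dashed line is 0.05. For HS versus NS all points of TGFB3 and FSTL1 lie below the line. For 5-Fu injection versus HS the points of all 5 genes fall on both sides of it.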

How the data were processed

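The authors sequenced poly-A selected RNA and deposited 1 table of FPKM values for all 12 samples. The aligner, the counting tool, its use of strand and the genome build are not given in the sources used here, so coordinates are those of the table, and reads of overlapping or antisense genes could not be told apart. Multiplied by gene length, 100% of the values of each sample were whole multiples of 1 step (tolerance 0.1 reads), from which reads were counted back. Samples were grouped by their labels. The deposited values entered limma 3.58.1 (R 4.3.3) as log2(FPKM + 1), with 4 groups in 1 fit, empirical Bayes moderation with a trend, and Benjamini-Hochberg adjustment over 13287 genes within each of 6 comparisons. Fold changes on this scale understate those of low genes. Reads counted back entered only limma voom, as an alternative. The procedure was tested on simulated data with independent noise for each gene. That simulation did not cover genes that vary together, or changes as small as those of the receptors and SMADs. The study used DESeq2, which was not used here.

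The members and gene lists were chosen with earlier results of these data known. Genes named are the 10 members, at most 4 genes with an adjusted p under 0.05 per list and comparison, and for members the 3 genes of highest correlation. FST, INHBB, CCN2, ACTA2, SMAD2 and SMAD4 were named after their values were seen. Alternatives were a pseudocount of 0.1, no filter, a filter at a mean of 5 FPKM, quantile normalization of the samples, rescaling to total reads, limma voom, adjusted p alone, only the groups compared, no trend, the replicate number as a block, and each sample left out in turn. Marker lists for endothelial cells, smooth muscle and pericytes, macrophages, B cells, skeletal muscle, adipocytes, mast cells and Schwann cells were also summed. Some genes of the lists are not reported here by name.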

Additional observations from a re-analysis of the deposited data

How the results depend on the processing

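For HS versus NS, 4 members were called under every other setting with all samples, and 2 to 4 with 1 sample left out. For 5-Fu injection versus HS, where 5 were called, the count was 1 without a filter (FSTL1), 3 on the total-read scale (FSTL1, LTBP2, TGFB2), 0 with only the groups compared, 2 with the replicate block (FSTL1, LTBP2), and 0 to 4 with 1 sample left out. It was 1 without NS replicate 1 and 2 without drug-loaded MNs replicate 2. FSTL1 was called in 15, LTBP2 in 13, TGFB2 in 11, TGFB3 in 9 and INHBA in 3 of 21 alternatives, and the fit to fewer samples has a less well determined spread. Drug-loaded MNs versus NS ranged from 0 to 1 called with 1 sample left out. Members called in the other comparisons remained 0 under all alternatives. Each sample was taken as its own rabbit, so the replicate numbers were not used as pairs. Deviations of samples with the same number had a mean r from -0.19 to 0.12 by comparison. Single values reached 0.44, for replicate 2 in drug-loaded MNs versus HS. These values cannot exclude a batch shared by samples of the same number.

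Directions turned for values that were not called. On the total-read scale and with limma voom, the log2 fold changes were -0.0568 and -0.0600 for TGFBR1 and -0.0749 and -0.0782 for TGFBR3 in HS versus NS, and 0.0332 and 0.0398 for SMAD7 in drug-loaded MNs versus HS. In drug-loaded MNs versus NS they were -0.0923 and -0.114 for TGFBR1, -0.203 and -0.206 for TGFBR2, and -0.102 and -0.105 for TGFBR3. With 1 sample left out, values ranged from -0.55 to 0.17 for TGFBR1 and from -0.52 to 0.0504 for SMAD3 in drug-loaded MNs versus HS, from -0.34 to 0.0356 for SMAD7 in 5-Fu injection versus HS, and from -0.14 to 0.24 for SMAD7 in drug-loaded MNs versus 5-Fu injection. In drug-loaded MNs versus NS the ranges were -0.28 to 0.43 for TGFBR1, -0.22 to 0.22 for TGFBR2 and -0.0795 to 0.29 for TGFBR3. In 5-Fu injection versus NS they were -0.0653 to 0.40 for INHBA and -0.26 to 0.22 for LTBP2. Apart from the shift of scale, the cause was not tested.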

Other observations

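The genes whose log2(FPKM + 1) followed a member most closely over the 12 samples were looked up among tested genes with a symbol, as a description. The samples fall into 4 groups, so a shared difference between groups raises every such value. For FSTL1 they were FBN1 (Pearson r = 0.98), FBLN5 (0.98) and EPB41L2 (0.98). FBN1 encodes fibrillin-1 and FBLN5 an elastic fibre protein. With group means removed the value for FBN1 was still 0.98. For TGFB3 they were ANGPTL2 (0.98), MAGED1 (0.98) and LOXL1 (0.97), the last a crosslinking enzyme of elastin. For TGFB2 they were FBLN1 (0.95), another matrix protein, GBF1 (0.95) and CDH24 (0.93). For LTBP2 they were XXYLT1 (0.95), the Wnt receptor FZD1 (0.95) and GALNT10 (0.93), and for INHBA EIF4G3 (0.91), ZNF449 (0.91) and PTPN13 (0.91). For the receptors and SMADs the closest genes reached 0.97 for TGFBR1 (RCBTB1), 0.95 for TGFBR2 (TRIM44), 0.94 for TGFBR3 (GAB1), 0.95 for SMAD3 and 0.91 for SMAD7 (SLC4A7).

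Among the members themselves, the closest pairs over the 12 samples were LTBP2 with TGFB2 (r = 0.90), FSTL1 with TGFB3 (0.89) and INHBA with LTBP2 (0.89). The lowest value was that of INHBA with SMAD7 (-0.33). These are values over samples that share group differences and tissue makeup. With group means removed, LTBP2 with TGFB2 had 0.81, FSTL1 with TGFB3 0.47 and INHBA with LTBP2 0.61. The highest value was then that of FSTL1 with TGFBR2 (0.91). None of these values was tested.

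Markers of other cell types, summed in FPKM, were spread as follows over NS and HS. Endothelial markers were at 291 to 377 in NS and 371 to 431 in HS, macrophage markers at 88.8 to 282 and 185 to 213, adipocyte markers at 244 to 382 and 350 to 451, and mast cell markers at 12.2 to 20.0 and 17.6 to 18.8. Schwann cell markers were lower in HS without overlap, at 122 to 196 against 395 to 968, with 2 of 4 genes past the limma adjusted p. Smooth muscle and pericyte markers were at 196 to 1394 in NS and 175 to 210 in HS, skeletal muscle markers at 10.7 to 74.5 and 5.89 to 9.48, and B cell markers at 0.504 to 3.90 and 0.483 to 1.47. After 5-Fu injection B cell markers reached 31.0, and with drug-loaded MNs 3.96.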
